A study of Mus musculus with 6 samples.

Results

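The genes described here are splicing factors and spliceosome subunits, taken as every row of the deposited table whose symbol begins with Srsf, Hnrnp, Sf3a, Sf3b, Snrp, Snrnp, Prpf or U2af, or with Rbm followed by a digit. There were 114 such rows among 13883 genes, and all 114 passed the filter on low values and were tested. They were measured by RNA sequencing in CD8 T cells of wild-type mice, obtained from spleen and lymph nodes and activated with antibodies to CD3 and CD28. Of the 6 libraries, 3 came from cells kept overnight with 20 mM DAHB, a compound given in the labels only by that name, and 3 from cells kept overnight with 20 mM NaCl, the control. Each library was made from 100000 cells, all carried 1 batch label, and the sources used here give no age, sex or number of mice. The series is titled around mitochondrial ATP production, T cell differentiation and chromatin accessibility, and the comparison asks which mRNAs differ between DAHB and NaCl.

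The spliceosome removes introns from pre-mRNA and is assembled anew on each intron from small nuclear ribonucleoproteins (snRNPs), each an RNA with a ring of Sm or LSm proteins and its own subunits. The U1 snRNP reads the 5′ splice site, U2AF and the U2 snRNP read the 3′ splice site and branch point, and the U4/U6.U5 tri-snRNP then joins and is remodelled into the catalytic machine. SR proteins and hnRNP proteins bind exons and introns and tilt the choice of splice sites, in T cells for instance at the variable exons of the CD45 gene Ptprc. Many genes of SR and hnRNP proteins limit their own output by splicing in an exon that sends the transcript to nonsense-mediated decay.

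Of the 114 splicing genes, 60 fell, 17 rose and 37 had no call in DAHB cells relative to NaCl cells (limma-trend on log2(normalised count + 1), Benjamini-Hochberg adjusted p under 0.05). Calls in either direction covered 58.5% of all 13804 genes tested. Falls made up 52.6% of the splicing genes, against 29.1% of all genes, and rises 14.9%, against 29.4% of all genes. The median log2 fold change of the splicing genes was -0.14, against 0.0019 for all genes tested. Abundant genes as a whole leaned the same way: 46.8% of the 3764 genes averaging 2000 normalised counts or more fell and 21.0% rose, with a median of -0.11. Among the 85 splicing genes of that abundance 49 fell (57.6%) and 9 rose (10.6%), with a median of -0.16. Most changes were small. Of the falls 52 were under 0.5 on the log2 scale and 3 reached 1, namely Hnrnph3, Rbm4b and the retrocopy Srsf3-ps. Of the rises 11 were under 0.5 and 5 reached 1, namely Rbm24, Rbm44, Rbm47, Prpf40b and Srsf12. Of these Rbm24, Rbm44, Rbm47 and Srsf12 were low, averaging 17.5 to 67.2 normalised counts over both groups. Rbm24 passed the filter on low values only through the DAHB group. Over all genes 10.6% rose and 1.97% fell at least 2-fold.

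In 84 of the 114 splicing genes no DAHB library overlapped a NaCl library in value (73.7%), against 63.4% of all genes tested. Among genes averaging 2000 normalised counts or more the share was 71.6%, and among splicing genes of that abundance 75.3%. The splicing genes together took 2.79, 2.76 and 2.81% of the counted reads in DAHB libraries, against 3.07, 3.11 and 3.08% in NaCl libraries. The highest share in a DAHB library was thus below the lowest in a NaCl library. Values are scaled by 1 size factor per library, so a rise or fall is relative to the bulk of genes. In bulk RNA, fewer cells of a type and less RNA per cell cannot be told apart. Nothing in the labels says that the libraries of a group came from separate mice or cultures. The p-values thus set each difference against the spread between these libraries, which may be technical.

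Counted reads per library ranged from 31055613 to 33179197 with DAHB and from 31436459 to 56007582 with NaCl, the highest being NaCl replicate 3. All 6 markers of CD8 T cells looked up (Cd8a, Cd8b1, Cd3d, Cd3e, Cd3g and Cd2) were in the table, with a summed normalised count of 46627 to 49198 with DAHB and 37474 to 38185 with NaCl. Of these Cd8a, Cd8b1, Cd3g and Cd2 rose, Cd3d fell and Cd3e had no call. Of 4 B cell markers 1 was in the table, Cd79b, at 549 to 623 with DAHB and 118 to 149 with NaCl. All 4 myeloid markers were listed, with sums of 732 to 1033 with DAHB and 416 to 828 with NaCl, and Cd4 lay at 54.2 to 72.4 with DAHB and 6.24 to 18.8 with NaCl. Foxp3 and the markers of NK cells, erythroid cells and platelets were not in the table, whose lowest read sum of any gene over the 6 libraries was 61. The part of other cell types in the values below was not tested.

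**Figure D1:**
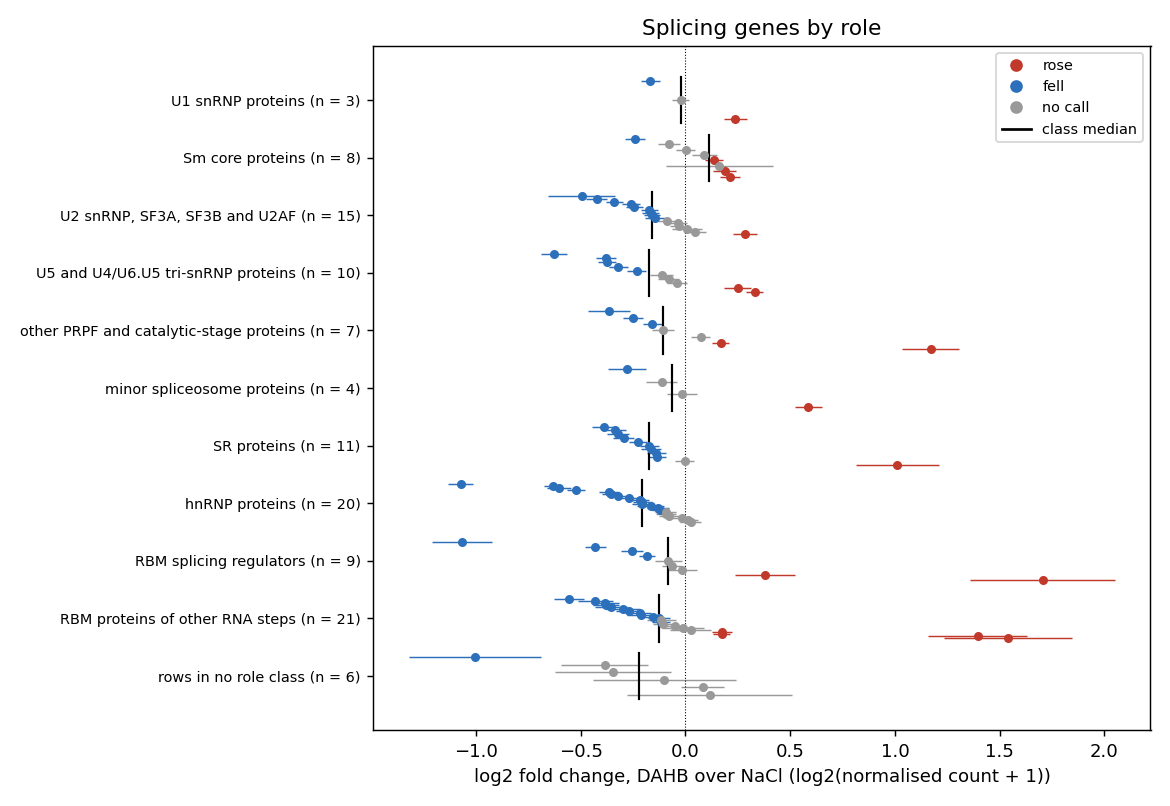
Log2 fold change (DAHB over NaCl, horizontal axis) of each splicing gene with its standard error, in rows by role. Blue points fell, red points rose, grey points had no call, and a black line marks the median of each class. No hnRNP gene is red, and the class medians lie below 0 in each class but the Sm core proteins, at 0.11.

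Promoters of splicing genes were looked at because 60 of the 114 genes fell. RefSeq windows on GRCm38.p6 were found for 92 of the 114 symbols, and the 250 bases before each start were searched on both strands, over all windows of a gene, for 9 short motifs of common promoter factors, chosen with earlier results of these data known. The ETS core CCGGAAG was present for 24 of 92 splicing genes (26.1%), against 7.83% of 27025 genes with a window and 15.8% of 10160 tested genes with one. The inverted CCAAT core GATTGG, read by NF-Y, was present for 29 of 92 (31.5%), against 16.6% and 22.7%. The ETS core was present for 12 of 51 genes that fell, 3 of 13 that rose and 9 of 28 with no call, and the CCAAT core for 17, 3 and 9 of these. The GC box GGGCGG was present for 57.6% of the splicing genes, against 64.3% of tested genes, the E-box CACGTG for 11 of 92, against 9.95%, and the TATA box TATAAA for 11 of 92, against 7.99%. The cyclic AMP element TGACGTCA, the NRF1 palindrome, the YY1 motif AAGATGGCG and the CGCG-centred palindrome of housekeeping promoters were present for 2, 2, 1 and 1 of the 92 genes, against 3.15%, 1.87%, 1.44% and 0.965% of tested genes. The median GC content of the windows was 59.6% for splicing genes and 52.4% for all 27025 genes with a window. Most of those 27025 genes were not among the tested genes, for which the GC content was not computed. A match is a run of letters, not a measured binding site.

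The 250 bases before the start are shown for 4 genes that fell (Hnrnpr, Hnrnpa1, Hnrnph1 and Rbm5), 1 with no call (Hnrnpa0) and 1 that rose (Prpf19), 5′ to 3′ on the strand of the gene, from RefSeq on GRCm38.p6. They were chosen among windows that overlap no annotated exon, to set matches beside a window without one. Capitals mark the ETS core CCGGAAG or the CCAAT core GATTGG on either strand. CCAAT followed by another base is left in small letters.
Hnrnpr (chr4:136310692-136310941, plus strand): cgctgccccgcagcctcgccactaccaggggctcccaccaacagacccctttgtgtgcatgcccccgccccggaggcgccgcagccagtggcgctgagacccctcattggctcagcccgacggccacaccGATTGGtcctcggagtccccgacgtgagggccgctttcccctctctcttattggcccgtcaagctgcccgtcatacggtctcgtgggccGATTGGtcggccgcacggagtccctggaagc
Hnrnpa1 (chr15:103240147-103240396, plus strand): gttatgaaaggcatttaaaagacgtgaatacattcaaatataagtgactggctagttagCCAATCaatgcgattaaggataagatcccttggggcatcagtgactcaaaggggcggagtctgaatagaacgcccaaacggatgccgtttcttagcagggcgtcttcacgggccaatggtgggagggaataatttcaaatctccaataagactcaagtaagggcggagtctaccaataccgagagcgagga
Hnrnph1 (chr11:50376740-50376989, plus strand): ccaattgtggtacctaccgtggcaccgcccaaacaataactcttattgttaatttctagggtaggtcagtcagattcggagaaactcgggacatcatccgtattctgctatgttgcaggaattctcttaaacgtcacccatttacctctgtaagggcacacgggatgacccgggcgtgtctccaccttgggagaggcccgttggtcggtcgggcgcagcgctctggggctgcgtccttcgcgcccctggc
Rbm5 (chr9:107771003-107771252, minus strand): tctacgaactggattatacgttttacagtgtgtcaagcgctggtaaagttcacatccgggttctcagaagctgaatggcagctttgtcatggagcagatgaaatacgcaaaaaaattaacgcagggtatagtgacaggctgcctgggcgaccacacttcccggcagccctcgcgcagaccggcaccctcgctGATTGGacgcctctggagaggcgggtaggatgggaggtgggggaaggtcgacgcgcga
Hnrnpa0 (chr13:58128557-58128806, minus strand): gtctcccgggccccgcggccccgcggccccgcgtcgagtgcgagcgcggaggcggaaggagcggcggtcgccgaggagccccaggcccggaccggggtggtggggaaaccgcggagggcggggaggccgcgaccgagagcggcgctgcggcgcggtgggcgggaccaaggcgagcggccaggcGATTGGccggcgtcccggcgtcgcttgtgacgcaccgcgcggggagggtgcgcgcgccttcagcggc
Prpf19 (chr19:10894981-10895230, plus strand): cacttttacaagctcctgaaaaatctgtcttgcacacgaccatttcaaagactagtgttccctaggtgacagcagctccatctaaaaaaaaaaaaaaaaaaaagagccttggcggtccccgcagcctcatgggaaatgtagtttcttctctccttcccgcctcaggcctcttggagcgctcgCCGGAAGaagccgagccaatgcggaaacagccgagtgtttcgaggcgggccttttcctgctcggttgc

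The run GATTGG stood 2 times before Hnrnpr, which fell by 0.63 on the log2 scale, and 1 time before Hnrnpa0, which had no call. CCAAT followed by another base, on either strand, also stands unmarked before Hnrnpr, Hnrnpa1, Hnrnph1 and Prpf19. Hnrnph1 fell with neither CCGGAAG nor GATTGG on either strand of the window shown, though that window begins with CCAAT. Another of its 5 windows holds the CCAAT core as searched, and Hnrnph1 is counted among the 29. Prpf19, which rose, held 1 ETS core. The motifs thus occurred with each kind of call.

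Genes of the U1 snRNP and of the Sm ring were split between directions and changed little. Of the 3 U1 subunits, Snrpc, which steadies U1 on the 5′ splice site, rose, with normalised counts of 3927, 4232 and 4075 in DAHB libraries, against 3712, 3296 and 3371 in NaCl libraries (log2 fold change 0.24, SE 0.053, adjusted p = 0.00148). Snrpa, which binds a stem-loop of the U1 RNA, fell (log2 fold change -0.17, SE 0.046, adjusted p = 0.00609), at 5716 ± 207 in DAHB cells and 6419 ± 228 in NaCl cells (SD, n = 3 each). Snrnp70, the subunit that recruits U1 partners, had no call, at 13187 ± 124 in DAHB cells and 13401 ± 230.0 in NaCl cells (adjusted p = 0.647). Under quantile normalisation the fall of Snrpa did not pass (adjusted p = 0.152).

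Of the 8 Sm core genes, whose products form the Sm ring of snRNPs, 3 rose, 1 fell and 4 had no call, and the median log2 fold change was 0.11. The 3 that rose all encode SmD proteins: Snrpd3 (log2 fold change 0.21, SE 0.047, adjusted p = 0.00143), Snrpd1 (log2 fold change 0.19, adjusted p = 0.00786) and Snrpd2 (log2 fold change 0.14, adjusted p = 0.0158). Snrpd3 had normalised counts of 8379, 8747 and 8318 in DAHB libraries, against 7515, 6909 and 7562 in NaCl libraries, without overlap. The ring protein SmB gene Snrpb, the most abundant of the class per length at 6817 normalised counts per kilobase of exon, moved the other way, with 12382, 12306 and 12331 in DAHB libraries, against 15297, 13576 and 14930.3 in NaCl libraries (log2 fold change -0.24, SE 0.048, adjusted p = 0.000652). Its paralogue Snrpn, which encodes the SmN protein known from brain, was low and overlapped between groups, at 58.4 ± 21.0 in DAHB cells and 50.7 ± 10.3 in NaCl cells (adjusted p = 0.615). Snrpe, Snrpf and Snrpg had log2 fold changes of 0.091, 0.0021 and -0.079 and no call. The rise of Snrpd2 was lost without NaCl replicate 1, NaCl replicate 2 or DAHB replicate 3 (adjusted p = 0.054, 0.0747 and 0.059). Exons of Snrpf overlap those of Ccdc38 on the other strand over 65.9% of their length, and the strand setting of the counting was not given in the sources used here.

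Among 15 genes of the U2 snRNP, its SF3A and SF3B complexes and U2AF, which together define the branch point and 3′ splice site, 9 fell, 1 rose and 5 had no call (median log2 fold change -0.16). That is 60% falls, against 46.8% of genes averaging 2000 normalised counts or more and 29.1% of all genes tested. Snrpa1, which encodes the U2 A-prime protein, had 4149, 4502 and 4235 in DAHB libraries, against 5862, 5439 and 5979 in NaCl libraries (log2 fold change -0.42, SE 0.05, adjusted p = 6.11e-06; ENSMUSG00000030512, chromosome 7, 66059003 to 66074587). All DAHB libraries lay below all NaCl libraries. Sf3b4, whose product contacts the pre-mRNA beside the branch point, fell in the same way, with 5528, 5439 and 5367 in DAHB libraries, against 7049, 6665 and 6949 in NaCl libraries (log2 fold change -0.34, SE 0.042, adjusted p = 1.01e-05). The branch-point binding subunit gene Sf3b1, often mutated in blood cancers in humans, averaged 13693 ± 431 in DAHB cells and 16379 ± 399 in NaCl cells (SD, n = 3 each; log2 fold change -0.26, adjusted p = 0.000135). Sf3b3, a scaffold subunit, fell by 0.24 on the log2 scale, and Sf3a1 and Sf3b2 by 0.16 and 0.17. The gene of the smallest SF3B subunit, Sf3b5, was the 1 that rose, with 2987, 3332 and 3147 in DAHB libraries, against 2503, 2466 and 2806 in NaCl libraries (log2 fold change 0.28, SE 0.059, adjusted p = 0.00088).

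U2af2 reads the pyrimidine tract before the 3′ splice site and U2af1 reads the AG dinucleotide at its end. U2af2 averaged 13356 ± 152 in DAHB cells and 15049.9 ± 350.4 in NaCl cells (SD, n = 3 each; log2 fold change -0.17, adjusted p = 0.00226), and U2af1 fell by 0.15 on the log2 scale (adjusted p = 0.0143). The related gene U2af1l4 was low, at 74.8 ± 10.1 in DAHB cells and 105 ± 7.42 in NaCl cells (log2 fold change -0.50, adjusted p = 0.0172), and shares 65.6% of its exon length with Gm49396 on the same strand, so its value is uncertain. The U2af1 call was lost without NaCl replicate 1 or 3 (adjusted p = 0.0596 and 0.054) and under quantile normalisation (adjusted p = 0.24), and that of U2af1l4 without NaCl replicate 1 or DAHB replicate 3 (adjusted p = 0.0566 and 0.0717). Snrpb2, Sf3b6, Sf3a2, Sf3a3 and Rbm17 had no call, with log2 fold changes between -0.088 and 0.046.

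In the tri-snRNP, 5 of 10 genes fell and 2 rose, with the subunits of 1 particle moving apart. Prpf4b, a kinase that phosphorylates tri-snRNP subunits, fell furthest, with 2552, 2214 and 2470.1 in DAHB libraries, against 3764, 3957 and 3451 in NaCl libraries (log2 fold change -0.63, SE 0.063, adjusted p = 1.25e-06; ENSMUSG00000021413, chromosome 13, 34875302 to 34906064). Prpf6, the scaffold that bridges U5 to U4/U6 and is itself phosphorylated by that kinase, rose, with 5139, 5292 and 5278 in DAHB libraries, against 4179.8, 4189 and 4127 in NaCl libraries (log2 fold change 0.33, SE 0.041, adjusted p = 1.06e-05; ENSMUSG00000002455, chromosome 2, 181591868 to 181655660). In neither gene did the groups overlap. The U4-binding Prpf31 fell, with 3616, 3454 and 3616 in DAHB libraries, against 4589, 4627 and 4654 in NaCl libraries (log2 fold change -0.38, SE 0.043, adjusted p = 4.38e-06), as did Snrnp40 of U5 (log2 fold change -0.38) and Prpf4 of U4/U6 (log2 fold change -0.32). The helicase gene Snrnp200, whose product unwinds U4 from U6, fell by 0.23 on the log2 scale (adjusted p = 0.000547). Snrnp27 rose by a log2 fold change of 0.25. Prpf8, the scaffold of the catalytic centre and the most abundant of these genes per length (4106 normalised counts per kilobase of exon), overlapped between groups, with 30805, 29827 and 29940.0 in DAHB libraries, against 29942, 32712 and 30591 in NaCl libraries (log2 fold change -0.041, adjusted p = 0.472). Prpf3 and Prpf38a had no call (log2 fold changes -0.08 and -0.11). Exons of Prpf31 overlap an antisense transcript over 18.1% of their length.

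Of 7 further PRPF and catalytic-stage genes, 2 rose, 3 fell and 2 had no call. Prpf40b, a protein associated with U1, had 339, 249.8 and 309 in DAHB libraries, against 145, 136 and 115 in NaCl libraries (log2 fold change 1.17, SE 0.14, adjusted p = 5.28e-06; ENSMUSG00000023007, chromosome 15, 99295087 to 99317018). Its libraries did not overlap between groups. Prpf19, the ubiquitin ligase that gives the Prp19 complex its name, rose, with 9619.5, 9728 and 10107 in DAHB libraries, against 8831, 8726 and 8635 in NaCl libraries (log2 fold change 0.17, SE 0.041, adjusted p = 0.0027). Prpf39, another U1 partner, fell by 0.36 on the log2 scale (adjusted p = 0.00666; 0.105 after correction for GC content and length). Rbm22, which holds the catalytic RNA in place, fell by 0.16 on the log2 scale (adjusted p = 0.00896; 0.308 under quantile normalisation), and Prpf18 and Prpf38b had no call.

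The minor spliceosome removes a rare class of introns with its own U11/U12 particle. Its subunit gene Snrnp48 had 918, 901 and 943 in DAHB libraries, against 613, 641 and 586 in NaCl libraries (log2 fold change 0.59, SE 0.065, adjusted p = 3.4e-06; ENSMUSG00000021431, chromosome 13, 38204938 to 38227665), a rise in which no libraries overlapped. Snrnp25 and Snrnp35 of the same particle had log2 fold changes of -0.018 and -0.11 and no call. Rbm48, which in human cells binds the U6atac RNA together with ARMC7, fell (log2 fold change -0.28, SE 0.092, adjusted p = 0.018), a call lost without NaCl replicate 1 or 3 (adjusted p = 0.0876 and 0.0518). The partner gene Armc7 fell too, with 304, 284 and 294 in DAHB libraries, against 448, 471 and 431 in NaCl libraries (log2 fold change -0.61, adjusted p = 2.48e-05). Of 9 minor spliceosome partners, 3 rose, namely Zrsr1 (0.72), Zmat5 (0.48) and Zcrb1 (0.22), and 4 fell, namely Armc7 (-0.61), Zrsr2 (-0.44), Pdcd7 (-0.32) and Txnl4b (-0.31), with log2 fold changes in brackets. Zrsr1 and Zrsr2 are near copies of each other, so their opposite values are uncertain, and under quantile normalisation Zrsr1 did not pass (adjusted p = 0.066).

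**Figure D2:**
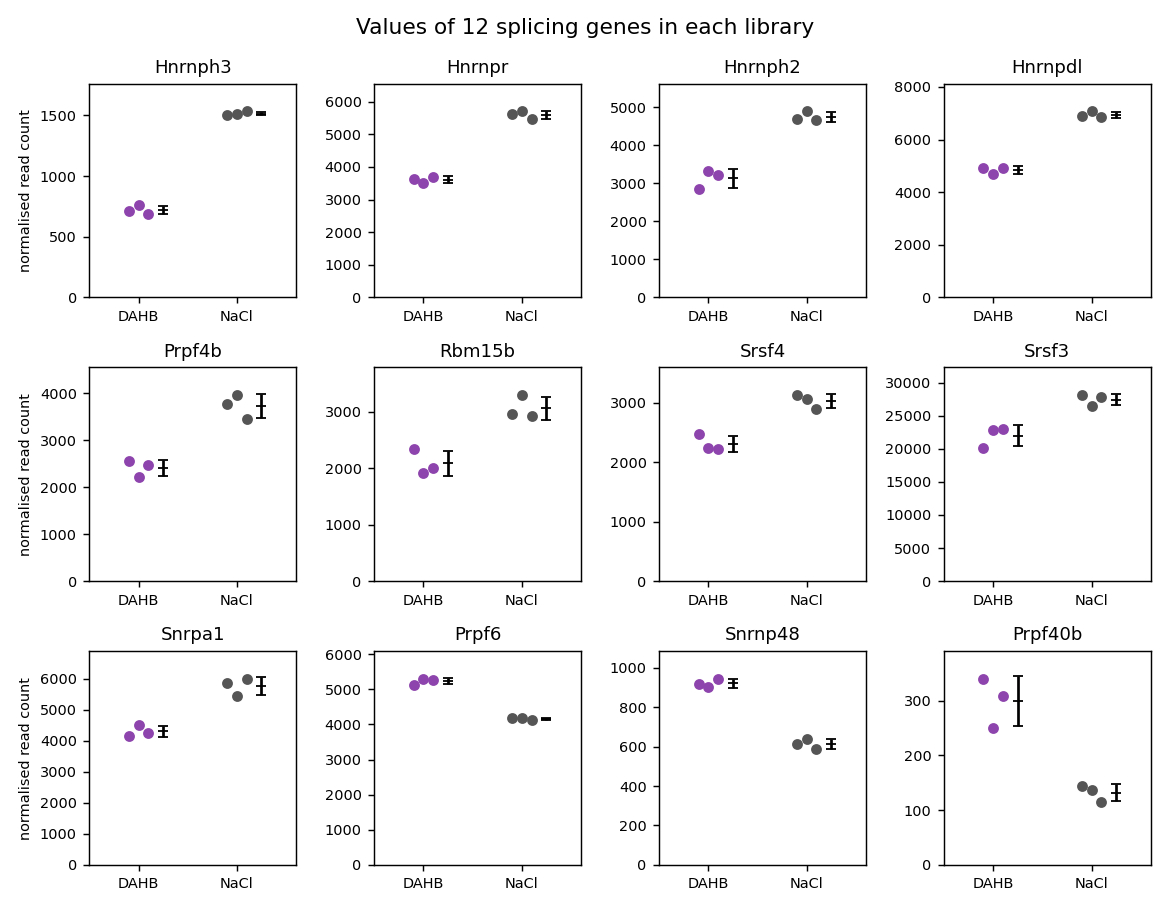
Normalised read count of 12 splicing genes in each library (points; DAHB left, NaCl right), with the mean and SD of each group (bar, n = 3). The first 9 genes lie lower in every DAHB library than in any NaCl library, and Prpf6, Snrnp48 and Prpf40b lie higher. These genes were chosen for display after their values were seen.

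SR proteins carry RNA-binding domains and a tail rich in arginine and serine, and as a rule they promote the use of exons they bind. Of the 11 SR genes, 9 fell (81.8%), 1 rose and 1 had no call, and the median log2 fold change was -0.17. Their median level was 9594 normalised counts. Over all genes averaging 2000 or more 46.8% fell and 21.0% rose, and over all genes tested 29.1% and 29.4%. Summed over the class, normalised counts were 106469, 112594 and 113009 in DAHB libraries, against 130374, 127967 and 129677 in NaCl libraries, without overlap. Srsf4 fell furthest, with 2467, 2242 and 2221 in DAHB libraries, against 3127, 3060.3 and 2898 in NaCl libraries (log2 fold change -0.39, SE 0.054, adjusted p = 2.62e-05; ENSMUSG00000028911, chromosome 4, 131873617 to 131901706). Srsf5 had 9126, 8012 and 8312 in DAHB libraries, against 10547, 11164 and 10403 in NaCl libraries (log2 fold change -0.34, SE 0.052, adjusted p = 7.27e-05), and Srsf3, the smallest SR protein, had 20133, 22832 and 23036 in DAHB libraries, against 28116, 26459.7 and 27821 in NaCl libraries (log2 fold change -0.32, SE 0.054, adjusted p = 0.000157). In these 3 genes each DAHB library lay below each NaCl library.

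Srsf7, a close relative of Srsf3, averaged 12264 ± 659.7 in DAHB cells and 15041 ± 586 in NaCl cells (SD, n = 3 each; log2 fold change -0.30, adjusted p = 0.000141), and Srsf6 fell by 0.23 on the log2 scale. Srsf1, the founding member, averaged 22430.5 ± 962 in DAHB cells and 25253 ± 229 in NaCl cells (log2 fold change -0.17, adjusted p = 0.00427). Srsf2, known for hotspot mutations in human myeloid disease, fell by 0.13 on the log2 scale (adjusted p = 0.0121), as did Srsf10 and Srsf11 by 0.14 and 0.17. These calls did not hold throughout: that of Srsf2 was lost without NaCl replicate 3 (adjusted p = 0.0588), and those of Srsf10 and Srsf11 without NaCl replicate 1 (adjusted p = 0.102 and 0.0628) and under quantile normalisation (adjusted p = 0.0954 and 0.161). The Srsf10 call was also lost after correction for GC content and length (adjusted p = 0.523). Srsf9 had 4029, 4065 and 4032 in DAHB libraries, against 3942, 3979.8 and 4239 in NaCl libraries, and no call (adjusted p = 0.958). Srsf12, a low-level relative, was the 1 that rose, with 94.4, 86.1 and 88.8 in DAHB libraries, against 55.9, 42.0 and 36.2 in NaCl libraries (log2 fold change 1.01, SE 0.2, adjusted p = 0.000544). Exons of Srsf4 overlap Gm12992 on the other strand over 43.0% of their length, and those of Srsf2 overlap Mettl23 over 15.6%. Gm12992 had at most 25.6 normalised counts in any library.

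No hnRNP gene rose, by limma, edgeR or DESeq2, and none did at an unadjusted p under 0.05 (0 of 20). Of 20 hnRNP genes, 14 fell (70%) and 6 had no call, and the median log2 fold change was -0.21. The class is abundant, with a median of 18928 normalised counts. Among all genes averaging 2000 or more 46.8% fell and 21.0% rose, and among all genes tested 29.1% and 29.4%. Their summed normalised counts were 480173, 496632 and 497674 in DAHB libraries, against 549335, 558857 and 552594 in NaCl libraries, without overlap. After correction for GC content and length Hnrnpa3 passed the test as higher (log2 fold change 0.11, adjusted p = 0.0223).

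The H/F family, whose proteins bind runs of G in RNA, held both the largest fall of any splicing gene, that of Hnrnph3, and a gene with no call. Hnrnph3 (ENSMUSG00000020069, chromosome 10, 63014664 to 63024217, GRCm38) had 715, 758 and 689 in DAHB libraries, against 1505, 1509.7 and 1533 in NaCl libraries (log2 fold change -1.07, SE 0.059, adjusted p = 3.77e-09). Hnrnph2 had 2846, 3326 and 3222 in DAHB libraries, against 4685, 4894 and 4663 in NaCl libraries (log2 fold change -0.60, SE 0.057, adjusted p = 6.96e-07), and Hnrnph1 had 10859, 11150.2 and 11304 in DAHB libraries, against 13923, 14669 and 14106 in NaCl libraries (log2 fold change -0.36, SE 0.042, adjusted p = 5.32e-06). In each of the 3 the groups were well separated. Hnrnpf stood at 27249.9 ± 1620.0 in DAHB cells and 29006 ± 354 in NaCl cells (SD, n = 3 each), with no call (log2 fold change -0.092, adjusted p = 0.124). Its groups did not overlap either, and under quantile normalisation it passed as lower (adjusted p = 0.00553). Reads of Hnrnph1 and Hnrnph2 can be shared where their coding sequences are near identical, so the split between them is uncertain.

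Hnrnpr, an RNA-binding protein also found in axonal transport granules, had 3635, 3492 and 3697 in DAHB libraries, against 5624, 5703 and 5465 in NaCl libraries (log2 fold change -0.63, SE 0.044, adjusted p = 3.38e-08; ENSMUSG00000066037, chromosome 4, 136310942 to 136359447). Hnrnpdl, a relative of the AU-rich element binding protein gene Hnrnpd, had 4932, 4675 and 4900.3 in DAHB libraries, against 6890.3, 7067 and 6868 in NaCl libraries (log2 fold change -0.52, SE 0.043, adjusted p = 1.64e-07), whereas Hnrnpd itself overlapped between groups at 13803 ± 265 in DAHB cells and 14599 ± 791 in NaCl cells (adjusted p = 0.163). The paralogues Hnrnpul2 and Hnrnpul1 had log2 fold changes of -0.37 (adjusted p = 2.06e-05) and -0.17 (adjusted p = 0.0343). Hnrnpul1 overlapped between groups, and its call was lost without NaCl replicate 1 or 2 or DAHB replicate 2 or 3 (adjusted p = 0.0807, 0.136, 0.119 and 0.152). Under quantile normalisation and with equal totals the Hnrnpul1 call was also lost (adjusted p = 0.142 and 0.068).

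The A/B proteins coat nascent RNA and commonly repress exons. Hnrnpa2b1 had 50679, 55556 and 55495 in DAHB libraries, against 67799.9, 66897 and 67486 in NaCl libraries (log2 fold change -0.32, SE 0.05, adjusted p = 6.77e-05). Hnrnpa1 had 48891, 52233 and 50976 in DAHB libraries, against 57895, 58843 and 58773 in NaCl libraries (log2 fold change -0.21, SE 0.046, adjusted p = 0.00137), and both were lower in every DAHB library. Hnrnpa3, Hnrnpa0 and Hnrnpab had no call, with log2 fold changes of 0.014, 0.025 and -0.094. In Hnrnpab the groups did not overlap, and quantile normalisation gave it a called fall of 0.26 on the log2 scale (adjusted p = 7.95e-06). Correction for GC content and length gave a called fall of 0.12 on that scale (adjusted p = 0.0284). Hnrnpab was the most abundant splicing gene per length, at 29932 normalised counts per kilobase of exon over both groups, ahead of Hnrnpa1 at 17317. Reads of Hnrnpa1 and Hnrnpa3 can be shared with processed pseudogenes, and exons of Hnrnpab overlap those of Phykpl on the other strand over 29.1% of their length.

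Hnrnpc, which binds uridine tracts, fell by 0.27 on the log2 scale, Hnrnpk, which binds C-rich RNA, by 0.22, and the nuclear scaffold gene Hnrnpu by 0.21 (adjusted p = 0.000275, 0.000574 and 0.00218). Hnrnpk had 30693, 32380.3 and 31814 in DAHB libraries, against 36767, 36631 and 36839.5 in NaCl libraries. Hnrnpll and Hnrnpl encode the regulators known to repress the variable exons of CD45 in activated T cells. Hnrnpll had 5081, 5409 and 5521 in DAHB libraries, against 5657, 5294 and 5265 in NaCl libraries, overlapping between groups, with no call (log2 fold change -0.018, adjusted p = 0.768). Hnrnpl had 16949, 15217 and 15052 in DAHB libraries, against 17776, 17533 and 16338 in NaCl libraries, with a log2 fold change of -0.13 (adjusted p = 0.0485). That call was near the threshold and was lost without NaCl replicate 1 or 2 or DAHB replicate 2 or 3 (adjusted p = 0.184, 0.128, 0.132 and 0.201). The Hnrnpl call was also lost by edgeR (adjusted p = 0.0601) and under quantile normalisation (adjusted p = 0.161). Equal totals and a replicate block ended it too (adjusted p = 0.0807 and 0.0521). Hnrnpm fell by 0.12 on the log2 scale (adjusted p = 0.0221), lost without NaCl replicate 2 or 3 or DAHB replicate 3 (adjusted p = 0.0608, 0.101 and 0.0555). With a replicate block and after correction for GC content and length the Hnrnpm call was also lost (adjusted p = 0.0715 and 0.0754).

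**Figure D3:**
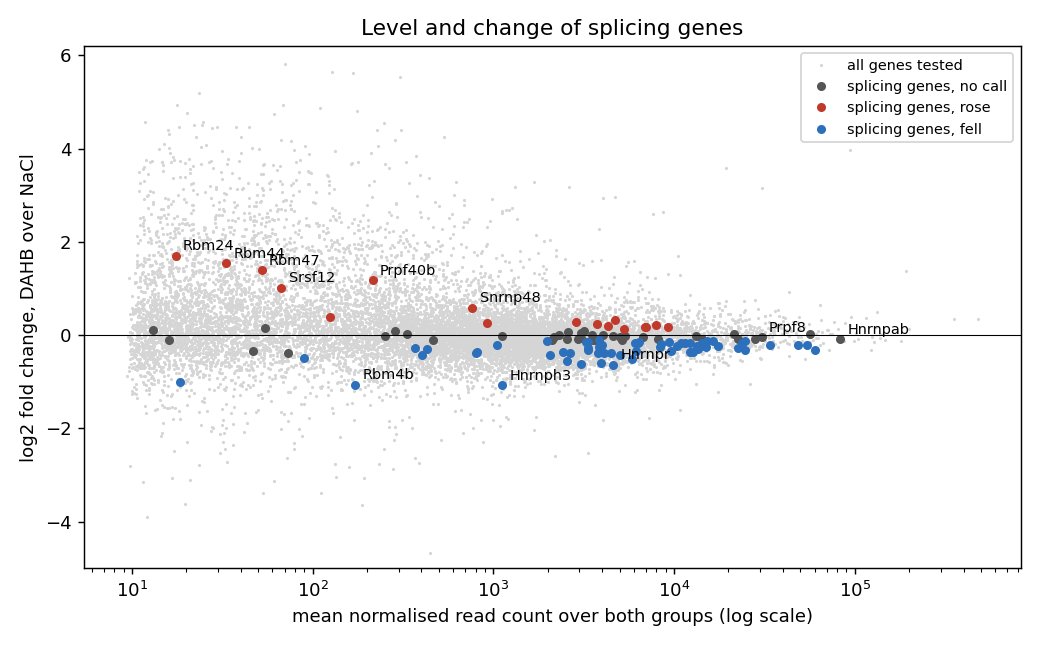
Log2 fold change (DAHB over NaCl) against the mean normalised read count over both groups (log axis) for all 13804 genes tested (light grey) and the splicing genes (blue fell, red rose, dark grey no call). Of the splicing genes that rose by at least 1 on the log2 scale, Prpf40b has the highest mean, 216 normalised counts, and among splicing genes with higher means Hnrnph3 lies lowest, at -1.07, and Snrnp48 highest, at 0.59.

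Of 9 RBM genes known as splicing regulators, 4 fell, 2 rose and 3 had no call. Rbm5, a regulator of apoptosis gene splicing, had 1804, 1676 and 1792 in DAHB libraries, against 2410.1, 2422 and 2271 in NaCl libraries (log2 fold change -0.43, SE 0.052, adjusted p = 7.68e-06), and its relative Rbm10 fell by 0.25 on the log2 scale, while Rbm6 had no call (-0.065). Rbm39, a U2AF2-like factor, had 8029, 7824 and 8024 in DAHB libraries, against 9109.6, 9036 and 8980.2 in NaCl libraries (log2 fold change -0.18, SE 0.04, adjusted p = 0.00116), lower in every DAHB library. Rbm25, which acts with U1 on 5′ splice sites, overlapped between groups at 4583 ± 526 in DAHB cells and 4617 ± 275 in NaCl cells (adjusted p = 0.871). Rbm3, the cold-inducible RNA-binding protein and the most abundant gene of the class per length (4789.7 normalised counts per kilobase of exon), also overlapped, at 21893 ± 2269 in DAHB cells and 23111 ± 929 in NaCl cells (adjusted p = 0.298).

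The paralogues Rbm4 and Rbm4b were low and moved apart. Rbm4b had 124, 116 and 94.4 in DAHB libraries, against 265, 208 and 229.6 in NaCl libraries (log2 fold change -1.07, SE 0.14, adjusted p = 1.75e-05), and Rbm4 had 159, 123 and 141 in DAHB libraries, against 118, 101 and 105 in NaCl libraries (log2 fold change 0.38, SE 0.14, adjusted p = 0.0364). Their sequences are close, and 60.5% of the exon length of Rbm4 is shared with the readthrough gene Gm21992 on the same strand, so both values are uncertain. The Rbm4 call was lost without NaCl replicate 2 or 3 or DAHB replicate 1 or 3 (adjusted p = 0.105, 0.0948, 0.129 and 0.0808) and by DESeq2 (adjusted p = 0.063) and under quantile normalisation (adjusted p = 0.989). Rbm24, known from muscle, passed the filter on low values only through the DAHB group, so its difference was favoured by the filter. It had 27.4, 28.7 and 25.5 in DAHB libraries, against 5.48, 9.95 and 8.11 in NaCl libraries (log2 fold change 1.71, SE 0.35, adjusted p = 0.000739).

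A further 21 RBM genes act mostly in other steps of RNA life, and of these 12 fell, 4 rose and 5 had no call. Falls were thus 57.1% of them, against 46.8% of genes averaging 2000 normalised counts or more and 29.1% of all genes tested. Rbm15b, an adaptor that brings the N6-methyladenosine writer to RNA, fell furthest, with 2338, 1921 and 2003 in DAHB libraries, against 2965, 3292 and 2928 in NaCl libraries (log2 fold change -0.56, SE 0.071, adjusted p = 1.19e-05). Its paralogue Rbm15 overlapped between groups and had no call (log2 fold change -0.12, adjusted p = 0.165). Rbm19 and Rbm28, whose yeast relatives act in ribosome biogenesis, fell by 0.36 and 0.16 on the log2 scale, and Rbm26 and Rbm27, linked in human cells to the nuclear exosome, by 0.27 and 0.22. Rbm43, Rbm18, Rbm33 and Rbm41 fell by 0.43, 0.39, 0.38 and 0.30 on the log2 scale. The Rbm41 call was lost after correction for GC content and length (adjusted p = 0.07), as was that of Rbm27 (adjusted p = 0.072), and Rbm27 did not pass under quantile normalisation either (adjusted p = 0.0802).

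Rbm8a, which encodes the exon junction complex core protein Y14, rose, with 7169, 7382 and 7541 in DAHB libraries, against 6532, 6467 and 6592 in NaCl libraries (log2 fold change 0.17, SE 0.041, adjusted p = 0.00241). Rbm38, an mRNA stability factor known as a p53 target, had 7929, 7279.7 and 7168 in DAHB libraries, against 6732, 6457 and 6646 in NaCl libraries (log2 fold change 0.17, SE 0.047, adjusted p = 0.00617), and its call was lost after correction for GC content and length (adjusted p = 0.466). The other rises were in genes with few reads. Rbm47, a cofactor of APOBEC1 editing, had 87.8, 88.2 and 54.4 in DAHB libraries, against 25.2, 28.7 and 29.9 in NaCl libraries (log2 fold change 1.40, SE 0.24, adjusted p = 0.000156), and Rbm44 had 37.3, 48.9 and 63.3 in DAHB libraries, against 13.2, 13.3 and 23.7 in NaCl libraries (log2 fold change 1.54, SE 0.31, adjusted p = 0.000618). Small falls of 4 further genes did not hold with a library left out: Rbm12 without NaCl replicate 3 (adjusted p = 0.0605), Rbm28 without DAHB replicate 2 (adjusted p = 0.0643), Rbm14 without any library but DAHB replicate 1 (adjusted p = 0.0533 to 0.158), and Rbm45 without NaCl replicate 1 or 2 or DAHB replicate 2 or 3 (adjusted p = 0.0896 to 0.184). Under quantile normalisation Rbm28, Rbm14 and Rbm45 had log2 fold changes of -0.058, -0.0088 and -0.043 (adjusted p = 0.308, 0.873 and 0.499), and after correction for GC content and length Rbm12 had -0.11 (adjusted p = 0.128). Rbm45 also lost its call by edgeR and DESeq2 (adjusted p = 0.0586 and 0.0774), and with a pseudocount of 0.5, equal totals or a replicate block. Exons of Rbm12 overlap Gm28036 over 32.6% of their length and those of Rbm14 overlap Gm21992 over 18.6%. Both overlaps are on the same strand, so these values are uncertain too. Rbm7, Rbm12b1, Rbm12b2 and Rbm34 had no call, with log2 fold changes between -0.11 and 0.024.

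The symbol rule also took 6 rows that are retrocopies, pseudogenes or an antisense transcript and belong to no role class. Srsf3-ps fell, with 14.3, 10.6 and 11.1 in DAHB libraries, against 23.0, 29.8 and 22.5 in NaCl libraries (log2 fold change -1.01, SE 0.32, adjusted p = 0.0139), a call lost without NaCl replicate 2 (adjusted p = 0.0652). Its reads cannot be told apart from stray reads of Srsf3. The processed pseudogene Snrpert overlapped between groups at 294 ± 18.8 in DAHB cells and 278 ± 24.2 in NaCl cells (adjusted p = 0.515). Rbm8a2, Rbm3os, Hnrnpa1l2-ps and Rbm3-ps had no call, with log2 fold changes between -0.39 and 0.11.

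Genes that work with these proteins but carry other names leaned the same way. Of 154 such genes in 8 lists, 153 were in the table, and of these 85 fell (55.6%) and 9 rose (5.88%), and the median log2 fold change was -0.16, against 29.1% falls and 29.4% rises over all genes tested. These 153 genes were abundant, with a median of 3339 normalised counts, against 667 for all genes tested. Genes averaging 2000 normalised counts or more showed 46.8% falls and 21.0% rises, with a median log2 fold change of -0.11. Among 11 spliceosome helicases 6 fell and 0 rose, including Ddx41 (-0.53), Dhx38 (-0.46), Aqr (-0.37) and Ddx23 (-0.30) with log2 fold changes in brackets. At an unadjusted p under 0.05, 1 helicase gene, Dhx16, was higher by limma, edgeR and DESeq2, and it passed under quantile normalisation and without DAHB replicate 3. Of 38 other core spliceosome genes 20 fell and 0 rose, with the largest fall in Isy1, at 3071 ± 82.2 in DAHB cells and 4622 ± 29.5 in NaCl cells (SD, n = 3 each; log2 fold change -0.59), with Eftud2 (-0.34) and Cwc27 (-0.32) also among those that fell. At an unadjusted p under 0.05, 0 of the 38 were higher by limma, edgeR or DESeq2, whereas under quantile normalisation 10 fell and 3 rose (Cdc5l, Luc7l3 and Phf5a). After correction for GC content and length Luc7l3 also passed as higher.

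Of the 8 LSm genes, whose products ring the U6 RNA or bind the 3′ ends of mRNAs bound for decay, 7 fell and 1, Lsm5, had no call, and none was higher at an unadjusted p under 0.05 by limma, edgeR or DESeq2 (0 of 8). Lsm4 had 3943, 3997 and 3846 in DAHB libraries, against 5451, 4963 and 5566 in NaCl libraries (log2 fold change -0.44, adjusted p = 4.33e-06), and Lsm6 (-0.38), Lsm1 (-0.33) and Lsm7 (-0.32) followed. The LSm and Sm genes are related, and their medians were -0.30 and 0.11, a difference between lists that was not tested. Of 16 genes of the SMN complex and Sm methylation, which assemble the Sm ring, 6 fell, led by Gemin4 (-0.40), Ddx20 (-0.33) and Gemin5 (-0.28), and 1 rose, the snRNP import adaptor gene Snupn, with 599, 705 and 652 in DAHB libraries, against 404, 466 and 491 in NaCl libraries (log2 fold change 0.52, adjusted p = 0.000189).

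SR protein kinases set the phosphorylation and location of SR proteins. In that list of 13 measured kinases, phosphatases and import factors, 9 fell and 1, Srpk2, rose (log2 fold change 0.39). Clk1 had 1941, 2177 and 2177 in DAHB libraries, against 3400.2, 3296 and 3424 in NaCl libraries (log2 fold change -0.69, adjusted p = 1.13e-07), and its paralogue Clk4 had 514, 460.3 and 482 in DAHB libraries, against 758, 778 and 741 in NaCl libraries (log2 fold change -0.65, adjusted p = 3.19e-06), both without overlap. Ppp1r8, a nuclear targeting subunit of protein phosphatase 1, and Dyrk2 fell by 0.51 and 0.51 on the log2 scale. Srpk1, the main cytoplasmic SR kinase, had a log2 fold change of -0.12 and no call (adjusted p = 0.0974).

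Of 40 other splicing regulators 22 fell and 3 rose, namely Nono (0.32), Celf2 (0.27) and Raly (0.15). Rbmx, an X-linked hnRNP-like gene that the symbol rule does not take, fell furthest, with 599, 534 and 563 in DAHB libraries, against 1570.2, 1625 and 1569 in NaCl libraries (log2 fold change -1.49, adjusted p = 2.61e-10). Mbnl3, a muscleblind family gene, had 597, 532 and 516 in DAHB libraries, against 1118, 1258 and 1203 in NaCl libraries (log2 fold change -1.12), and Ptbp2, the paralogue of the pyrimidine tract binding gene Ptbp1 known from neurons, and Qk, the quaking gene, fell by 0.83 and 0.82 on the log2 scale. Of 18 genes of the exon junction complex and nonsense-mediated decay 11 fell and 1, Magohb, rose (log2 fold change 0.22). Smg5, which helps recycle the decay factor UPF1, had 1956, 1513 and 1646 in DAHB libraries, against 2662, 2961 and 2609.5 in NaCl libraries (log2 fold change -0.69, adjusted p = 5.31e-06), and Upf3b (-0.52), Smg8 (-0.44) and Upf2 (-0.41) followed.

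**Figure D4:**
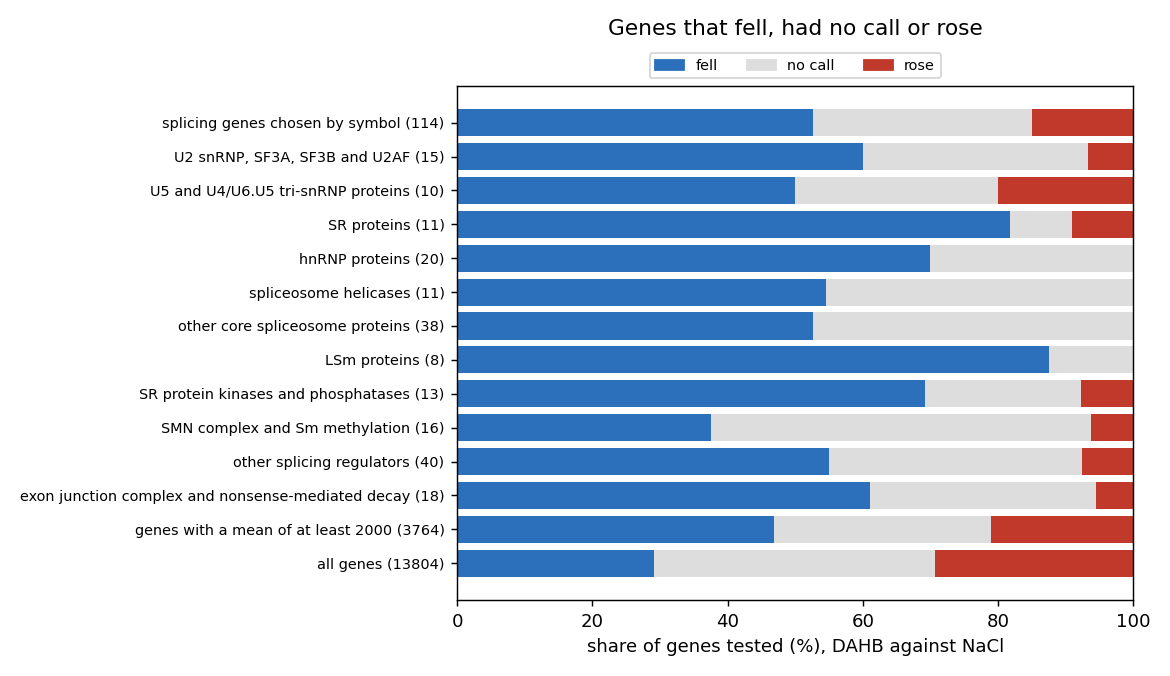
Share of genes tested that fell (blue), had no call (grey) or rose (red) in DAHB against NaCl, for the splicing genes, 4 of their role classes, 7 lists of partner genes, abundant genes and all genes, with the number of genes in brackets. The splicing genes show 52.6% falls, against 46.8% in genes with a mean of at least 2000 and 29.1% in all genes.

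Annotated transcripts and exon length, which the symbol rule did not use, are set beside the change here. GENCODE M21 annotates at least 1 nonsense-mediated decay transcript for 46 of the 108 genes in a role class. Of these 33 fell and 2 rose, and the median log2 fold change was -0.21. Of the 62 genes without one 26 fell and 15 rose, with a median of -0.09. Over all protein-coding genes tested, 34.9% of 3539 genes with such a transcript fell, against 29.6% of 8795 without. Rises were 27.4% with and 32.7% without, and the medians -0.041 and 0.024, so the lean ran the same way over all genes. Genes with such transcripts also had longer exons (median 5550.0 against 4346 bases among the splicing genes). These are descriptions with no test, and the deposited gene counts sum over all transcripts of a gene, so isoforms were not measured.

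Splicing genes with a summed exon length under their median of 4961 bases held 12 of the 17 rises and 23 of the falls, while those at or above it held 5 rises and 36 falls. Over all protein-coding genes tested the same split gave 28.3% falls among shorter genes and 34.6% among longer ones, with 2317 rises among 6872 shorter genes and 1532 among 5462 longer ones. Across the 108 genes in a role class Spearman's rho between the log2 fold change and exon length was -0.27, with transcript GC content 0.10 and with the mean count -0.15. Over all 12334 protein-coding genes tested the rho with exon length was -0.092 and that with the mean count -0.31, and over the 12329 with a GC value the rho with GC content was 0.21. These correlations run across genes that share the same 6 libraries, are not over independent replicates and carry no p.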

How the data were processed

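The tools named per the submitters' processing notes are featureCounts 1.5.2, STAR 2.5.2b, Trimmomatic 0.36 and DESeq2 without a version, and the build is GRCm38. The annotation release, the strand setting and the filter on low genes are not given in the sources used here. The deposited values are a normalised signal per gene, read counts divided by 1 size factor per library by the authors. Dividing each value by the worth of 1 read gave a whole number for 100% of values in each library (tolerance 0.001), so whole reads were recovered. On these reads edgeR called 8084 genes and DESeq2 7670, against 8071 in the main test. Libraries of 1 group were distinct beyond counting noise (chi-square over its degrees of freedom 4.61 to 17.2).

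The filter kept genes that reached 10 normalised counts in 3 or more libraries (13804 of 13883). Values were transformed as log2(normalised count + 1) and tested with limma-trend (limma 3.58.1, R 4.3.3), two-sided, Benjamini-Hochberg adjusted over all genes, threshold 0.05. An adjusted p comes from this test where no other is named. The procedure was also run on simulated reads with the same spread for all genes and few changed genes. These data differ in both, so that run says little about error rates here. Alternatives were pseudocounts of 0.5 and 10, no filter, a minimum count of 50, quantile normalisation, equal totals, a robust prior, a replicate block, each library left out, edgeR 4.0.16, DESeq2 1.42.0, and a correction for GC content and length by a robust trend per library. Coordinates are from GENCODE M21.

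The members, role classes, lists and tests were chosen with earlier results of these data known. Named are members with a called log2 change of at least 1, in each class up to 6 called members with the largest change and 100 or more normalised counts on average in the higher group, the most abundant member, 22 fixed genes, and members of counts of 5 or fewer; for partner lists, up to 4 by the same measure. Other genes were named after their values were seen. Results of some genes are not reported here.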

Additional observations from a re-analysis of the deposited data

How the results depend on the processing

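Of the splicing genes, 17 rose and 60 fell. Leaving out 1 library gave 15 to 17 rises and 51 to 64 falls, and the other alternatives gave 15 to 19 rises and 54 to 60 falls. Of the 77 calls, 55 held under each alternative that tested them (all 17, or 16 for Rbm24 and Rbm44, which a minimum count of 50 left out), 22 were lost under at least 1 and 0 changed direction, whereas 17 of 37 genes without a call passed under at least 1. Quantile normalisation ended 12 calls and made 8; it moved the median of all genes to -0.066 and that of the splicing genes to -0.12, which narrows the gap between them. The cause of these losses was not tested. With the replicate number as a block, 17 splicing genes rose and 56 fell, and over all genes 3931 rose and 3841 fell, against 4052 and 4019. Same-numbered libraries did not deviate together (correlations of deviations -0.0488, -0.154, 0.0405), and 2 of 6 libraries correlated best with their own number, so the numbers are not taken as pairs. Libraries hold between 31055613 and 56007582 reads, so depth limits mainly the genes with few reads, such as Rbm24 and Rbm44.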
